A study of Mus musculus with 6 samples.

Results

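Bone marrow of mice that had received 9.5 Gy and a cell transplant was compared with marrow of unirradiated mice, and the changes that both kinds of transplant shared were described. The 4 arrays of irradiated recipients were set against the 2 arrays of unirradiated marrow, so all 6 arrays of the series were used. A probe was taken as shared when its 4 irradiated values all lay above, or all below, both BM values. This held for 1170 of 9982 tested probes, 555 higher and 615 lower, on arrays of 19801 probes. With 4 against 2 arrays in arbitrary order, a fraction of 0.0667 of probes would lie all above, and 0.0667 all below. The shares found, 5.56% higher and 6.16% lower, were no larger, and the counts are descriptions only.

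All mice were female C57BL/6J, 6 to 10 weeks old in the labels, and the methods give the recipients as C57BL/6J-CD45.1. The BM group was age-matched marrow without irradiation or transplant, with 2 mice pooled per array. Mice of the HSC group were given 9.5 Gy and then whole bone marrow cells that include HSCs, pooling 2 mice for each array, and the MSC group the same dose and mMSCs, pooling 3. The mMSCs were a bulk culture (not 1 clone) of mesenchymal stromal cells grown from male marrow and labelled with a retrovirus for eGFP, and the donors of the HSC group were male too. HSC and MSC are therefore names of recipients, and the RNA in every group came from whole marrow. The methods put sampling at day 21 after transplantation, but the series' own design text puts it at 7 months. There was no array of irradiated marrow without a transplant, so the parts of irradiation, of cell injection and of the recipient strain cannot be told apart here. With pools of 2 or 3 mice and 2 pools per group, p-values measure the spread between pools.

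Platelets are shed by megakaryocytes of the marrow and carry adhesion receptors and chemokines, whose transcripts reach the marrow RNA with these cells. B cells and dendritic cells load antigen on MHC class II molecules, whose genes are driven by the coactivator Ciita. Interferons act through STAT and IRF factors on short promoter elements and switch on antiviral genes, the immunity GTPases and some chemokines, while p53 switches on cell cycle inhibitors such as Cdkn1a after DNA damage. Whole-body irradiation is known to deplete dividing blood progenitors and lymphocytes, and stroma and resident macrophages of the marrow survive it better. In bulk marrow, fewer cells of a type and less RNA per cell cannot be told apart.

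Short promoter stretches are shown first for 4 genes that lay higher on all irradiated arrays and hold an element of the type that interferon-activated factors bind. They are RefSeq promoter sequences of the mouse build GRCm38.p6, written 5′ to 3′ along the gene, upstream of the start of transcription. Capitals mark matches to the ISRE-type element searched, which is GAAA, any 2 bases and GAAA again, on either strand (TTTC, any 2 bases and TTTC when read from the other strand). Overlapping matches run together.
Ifit1, chr19:34640779-34640818, plus strand: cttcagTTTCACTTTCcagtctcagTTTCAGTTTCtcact
Ifit3, chr19:34583369-34583423, plus strand: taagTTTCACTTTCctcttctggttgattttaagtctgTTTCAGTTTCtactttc
Tgtp1, chr11:48992297-48992341, minus strand: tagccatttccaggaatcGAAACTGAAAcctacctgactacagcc
Apol9a, chr15:77411111-77411145, minus strand: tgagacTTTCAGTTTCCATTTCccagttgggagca
The search covered the 250 bases before the start of transcription. In that window the element was found in 978 of 32851 mouse promoter entries (2.98%). Of the 15 rises named by rule, 14 had a promoter entry and 4 held the element, namely Tgtp1, Ifit3, Apol9a and the acute phase gene Saa3. Of the 15 falls, 15 had an entry and 0 held it. Among all tested genes 217 of the 6173 with an entry held it (3.52%), among the shared lower ones 15 of 399 (3.76%) and among the shared higher ones 23 of 335 (6.87%). No comparison of these shares is drawn, since entries were missing for part of the symbols (335 of 436 shared higher and 6173 of 7687 tested had one). The 15 rises and 15 falls are small sets chosen by these same values, so their counts are a description too. The chemokine genes Ccl8 and Cxcl9 had no match in this window. A match is a description of letters and no measured binding.

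Between 11072 and 12510 probes per array were above background, 8848 of the tested probes on all 6 arrays, and spots were 2.10 to 2.69 times brighter (median per array) than the background around them. The labels call the array a human one and the methods a mouse one, and the probes carry mouse sequence records. Marrow cells were present in all groups. The erythroid carbonic anhydrase gene Car1 stood between 12.65 and 13.75 on the log2 scale of normalized intensity and the neutrophil granule gene Ltf between 14.76 and 15.23, while Mpo was above background on 3 arrays. All log2 values below are on this scale. The 8 tested reference genes differed between irradiated marrow and BM by -0.24 to 0.24, and the median of all probes was -0.01. By mean absolute difference over the probes, BM replicate 2 lay closest to HSC replicate 2 (0.287) and farther from BM replicate 1 (0.363), and MSC replicate 2 was the farthest from both HSC arrays (0.468 and 0.527). The Y-linked gene Eif2s3y, which can mark male donor cells that kept the Y chromosome, stood at 11.72 and 10.97 in HSC. It stood at 7.47 and 6.61 in MSC, against 6.51 and 6.97 in BM. The Y-linked gene Ddx3y likewise stood at 8.48 and 8.13 in HSC and at 6.02 to 7.08 on the other 4 arrays. These 2 genes did not enter the test because they were not above background on all arrays of one side. The paper reports that cloned mMSCs lost the Y chromosome in culture, while bulk mMSCs still carried it at an earlier passage. Low Y-linked values in MSC therefore cannot tell whether donor cells were present. Of the Y-linked genes tested, Usp9y had a difference of 0.34 and Kdm5d one of 0.42 (adjusted p = 0.838 and 0.824 from limma). Uty and Zfy1 were above background on 0 arrays. The Y-linked gene Zfy2 was above it on 1 array only, BM replicate 1 at 10.64, an array of female marrow, and stood at 6.55 to 7.21 on the others.

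The irradiated mean was compared with BM by limma, a linear model fitted over all probes, with Benjamini-Hochberg adjustment of the p-values. At an adjusted p under 0.05, 10 of 9982 probes (0.100%) passed, 2 higher (0.0200%) and 8 lower (0.0801%) in irradiated marrow, and all 10 had groups that did not overlap. At an unadjusted p under 0.05 there were 653 (6.54%). This test compares the mean of the HSC and MSC groups with BM and keeps the difference between HSC and MSC out of the spread. With MSC alone against BM all 10 probes passed (adjusted p = 0.00286 to 0.0158 from limma). With HSC alone against BM only those of Ppbp and Treml1 passed (0.047 each), and the others of the 10 had 0.0757 to 0.897. When the 4 irradiated arrays were treated as 1 group of equal arrays, 0 probes passed (402 at an unadjusted p under 0.05), and the methods' t-test also gave 0 after adjustment (403 unadjusted).

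**Figure D1:**
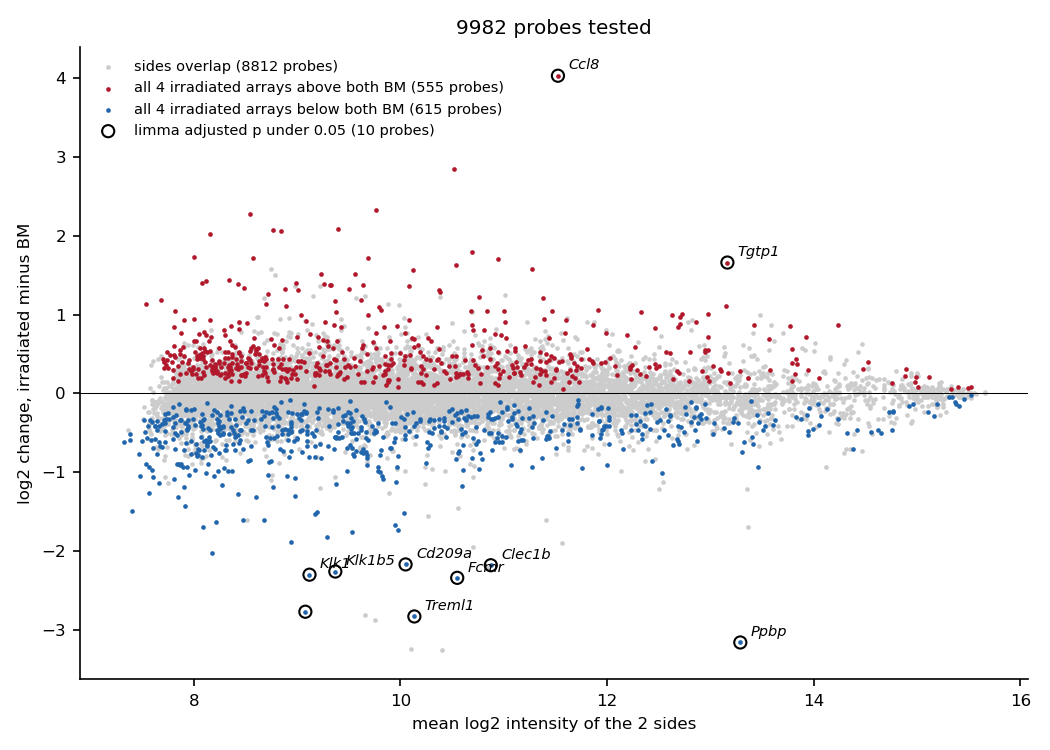
Change of each of the 9982 tested probes (log2 intensity, mean of the irradiated groups minus mean of BM) against its mean log2 intensity over both sides. Red and blue points are the 555 and 615 probes whose 4 irradiated arrays lay on 1 side of both BM arrays, grey points are the other probes, and circles mark the 10 probes past limma, of which the 9 with a symbol are named.

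The groups did not overlap for 555 probes higher (5.56%) and 615 lower (6.16%) in irradiated marrow. These probes stand for 436 and 482 gene symbols. Most differences were small. The median size was 0.40 on the log2 scale for the higher probes and 0.47 for the lower ones, and 59 and 48 probes had a size of 1 or more. The range reached 4.03 upwards (Ccl8) and 3.16 downwards (Ppbp). Of the higher probes 496 were above background on all arrays of both sides, and 58 on all irradiated arrays but not on both BM arrays. Of these 58, 21 were above it on no BM array. Of the lower probes 461 were above background on all arrays of both sides, and 154 on both BM arrays but not on all 4 irradiated ones. These 154 could enter only because BM was high (the BM side only), and 33 of them were above background on no irradiated array. At the edge of the definition, the probe of Rpl27a was just inside, with BM at 15.52 and 15.53 and irradiated arrays at 15.48 to 15.52, and that of Rnf215 just outside, with HSC replicate 1 and BM replicate 2 both at 8.30.

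The strongest falls were in genes of platelets. Ppbp encodes the platelet basic protein, a chemokine precursor stored in platelet granules. It stood at 14.89 and 14.84 in BM, where both spots were saturated, at 12.30 and 12.68 in HSC and at 11.03 and 10.82 in MSC. The irradiated mean was at least 8.95-fold lower than BM (log2 change -3.16, SE 0.19, adjusted p = 0.00562 from limma, n = 4 against 2 arrays). The values of the 3 groups did not overlap, with MSC lowest.

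Treml1, a receptor kept in platelet granules, stood at 11.49 and 11.62 in BM, 9.01 and 9.39 in HSC and 8.22 and 8.28 in MSC. It fell by 2.83 (SE 0.19, adjusted p = 0.00562 from limma). Clec1b, the platelet receptor for podoplanin (CLEC-2), stood at 11.98 and 11.96 in BM, 10.19 and 10.23 in HSC and 9.22 and 9.49 in MSC and fell by 2.18 (SE 0.18, adjusted p = 0.00863). Both genes kept the same order of groups as Ppbp, and all arrays were above background. Without HSC replicate 1 or HSC replicate 2 the call of Clec1b was lost (adjusted p = 0.0570 and 0.0669, over all limma alternatives 0.00268 to 0.222), while Ppbp and Treml1 passed with each array left out (0.00635 to 0.0373).

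Of 14 tested genes of platelets and megakaryocytes, 3 fell past the test (Ppbp, Treml1 and Clec1b) and 11 did not pass. On all 4 irradiated arrays 11 of the 14 lay below both BM arrays and 0 above, where 6.16% of all tested probes lay below, and the list median was -0.97. Of the 10 that were above background on both sides 7 were lower. Gp1bb, a chain of the von Willebrand factor receptor, stood at 9.69 and 9.26 in BM, 7.52 and 8.10 in HSC and 8.01 and 7.86 in MSC (-1.61, adjusted p = 0.0818 from limma). Its spot on HSC replicate 1 was not well above background. Its partner chain gene Gp1ba was not well above background on any irradiated array and at least 2.06-fold higher in BM, and the platelet lipoxygenase gene Alox12 was above it on MSC replicate 1 alone of the irradiated arrays and at least 1.77-fold higher in BM than in HSC. The sides were also apart for the third chain, Gp9 (-0.94), and for the tetraspanin gene Cd9 (-1.01). Slc6a4, the serotonin transporter that loads platelets, stood at 10.77 and 10.82 in BM, 9.55 and 10.05 in HSC and 8.77 and 8.72 in MSC (-1.52, adjusted p = 0.0671). Pf4, which encodes platelet factor 4, had no usable spot on BM replicate 1 and was not tested. It read 11.67 on BM replicate 2, 9.18 and 9.29 in HSC, 9.47 on MSC replicate 1 and 11.29 on MSC replicate 2. The transcription factor gene Nfe2 and the P-selectin gene Selp had differences of -0.05 and 0.10 and overlapping sides.

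**Figure D2:**
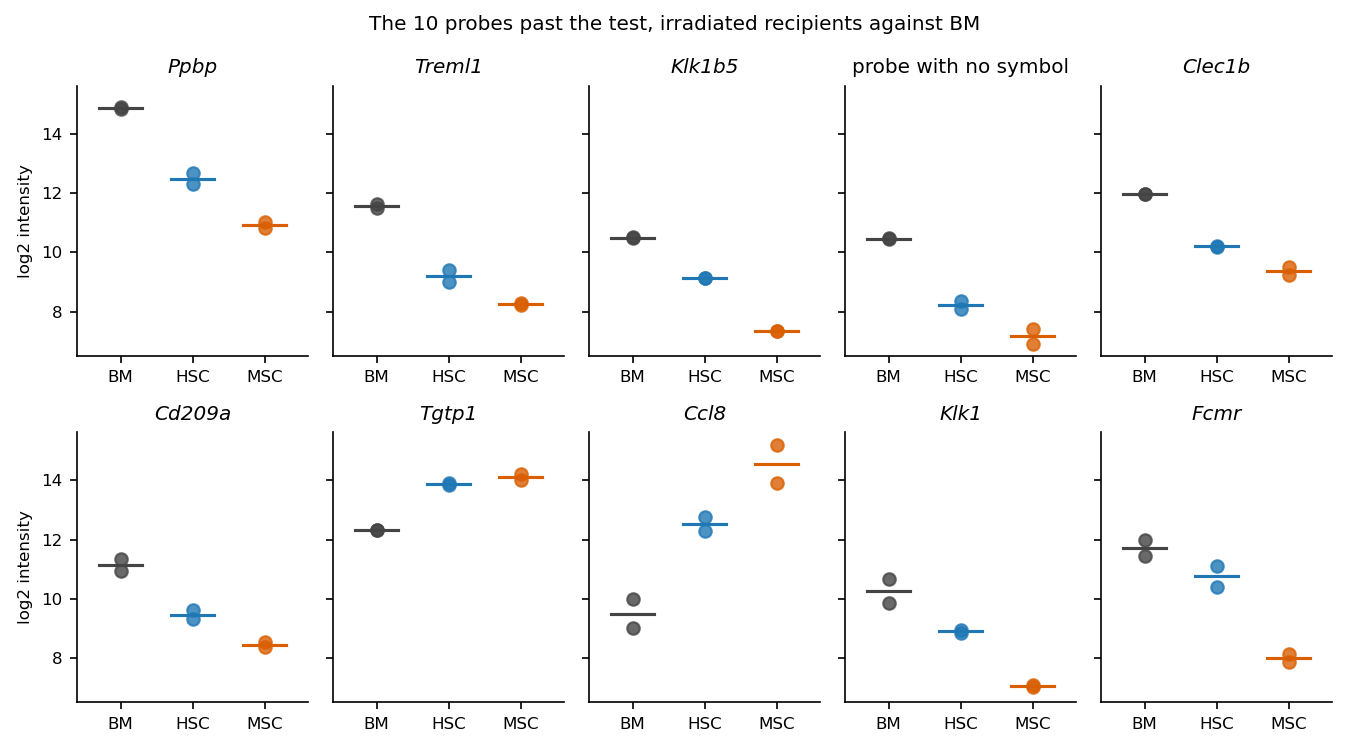
Log2 normalized intensity of the 10 probes past limma, with 1 point per array and a bar at the mean of each group of 2 arrays (BM, HSC, MSC). In the 8 probes that were lower the MSC points lie below the HSC points, and in Tgtp1 and Ccl8 they lie above them.

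Further falls were found in 2 kallikreins, in a lectin and in an Fc receptor. Klk1b5, a member of the kallikrein family of serine proteases, stood at 10.47 and 10.53 in BM, 9.13 and 9.15 in HSC and 7.34 on both MSC arrays, which were not well above background. BM was at least 8.68-fold higher than MSC, and the irradiated mean fell by 2.26 (SE 0.16, adjusted p = 0.00687 from limma). Klk1, the tissue kallikrein, stood at 9.87 and 10.68 in BM, 8.84 and 8.96 in HSC and 7.01 and 7.10 in MSC, again not well above background there. It fell by 2.30 (SE 0.25, adjusted p = 0.0360) and was at least 7.54-fold higher in BM than in MSC. Mouse kallikrein genes are near-identical copies, so which of them these probes measured is uncertain. When HSC replicate 1, HSC replicate 2, MSC replicate 1 or MSC replicate 2 was left out, Klk1 no longer passed (adjusted p = 0.0598 to 0.139, over all limma alternatives 0.00660 to 1).

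Cd209a, a C-type lectin of dendritic cells and the mouse relative of DC-SIGN, stood at 10.94 and 11.33 in BM, 9.33 and 9.61 in HSC and 8.39 and 8.53 in MSC. It fell by 2.17 (SE 0.20, adjusted p = 0.0180 from limma), and its call was lost without HSC replicate 1 or HSC replicate 2 (0.0760 and 0.0683). Fcmr, the receptor for IgM on B cells, stood at 11.46 and 11.98 in BM, 10.41 and 11.11 in HSC and 8.13 and 7.88 in MSC. It fell by 2.34 (SE 0.26, adjusted p = 0.0427), with a change of -0.96 in HSC and -3.72 in MSC, and passed without BM replicate 1 (0.0407) but with no other array left out (0.0593 to 0.103). The remaining fall was in a probe with no gene symbol, at 10.44 and 10.49 in BM, 8.08 and 8.36 in HSC and 7.41 and 6.92 in MSC, which were not well above background. BM was at least 8.63-fold higher than MSC, and the fitted change of the irradiated mean was -2.77 (adjusted p = 0.00687). This probe and both kallikreins entered the test through the BM side only.

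Genes of antigen presentation lay lower without passing the test. Of 15 tested genes of MHC class II and dendritic cells, 0 passed limma, and 7 lay below both BM arrays on all 4 irradiated arrays and 0 above (list median -0.71, with 6.16% of all tested probes below). H2-Ob, a chain of the peptide-loading regulator H2-O, stood at 10.85 and 10.71 in BM, 9.92 and 9.98 in HSC and 7.88 and 8.66 in MSC (-1.67, adjusted p = 0.0818). Its partner chain H2-Oa had a difference of -1.09, the H2-DM chains H2-DMb2 and H2-DMb1, which help exchange peptides, had -1.88 and -1.05, and Ciita had -1.0. The spot of H2-DMb2 on MSC replicate 1 was not well above background. The class II molecules themselves overlapped between the sides, with H2-Aa at -0.67, H2-Eb1 at -0.71 and H2-Ab1 at -0.31. Against the BM mean the list had medians of -0.86 and -0.80 on the HSC arrays and -1.0 on MSC replicate 1 but -0.07 on MSC replicate 2, and its median was -1.07 without MSC replicate 2 and -0.45 without MSC replicate 1.

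Of 10 tested mature B cell genes 1 fell, Fcmr, and 4 lay below both BM arrays on all 4 irradiated arrays and 0 above (median -0.61), where 6.16% of all tested probes lay below. Of the 5 that were above background on both sides 2 were lower, Fcmr and Cd55, while Cr2 and Cd22 entered through the BM side only. Cr2, the complement receptor CD21, stood at 8.79 and 9.27 in BM and was not well above background on any irradiated array (7.58, 7.64, 7.03 and 7.37), so BM was at least 2.89-fold higher (adjusted p = 0.0671 from limma). The inhibitory coreceptor gene Cd22 had a difference of -0.72. Among 12 early B cell genes no shared direction was seen, since 0 were higher and 0 lower on all 4 arrays. The list median against BM was 0.40 in HSC and -0.96 in MSC. Of 11 plasma cell genes 0 were higher and 1 lower (median -0.21).

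Klra4, a Ly49 receptor of NK cells, stood at 9.36 and 9.02 in BM, 7.27 and 7.44 in HSC and 6.56 and 7.42 in MSC (-2.02, adjusted p = 0.0671 from limma), with MSC replicate 2 the only irradiated array above background. Ly49 genes are a family of close copies, and which member was measured is uncertain. Of 9 tested NK and cytotoxic genes 1 was lower, the related Klra8 (-1.01), and the list median was 0.10. Among 12 T cell genes 1 was higher, the costimulatory receptor gene Cd28 (1.21). Over all tested probes 5.56% lay higher and 6.16% lower. The T and NK lists had medians of 1.81 and 1.29 on MSC replicate 2 and of -0.35 to 0.04 on the other irradiated arrays, so that array alone carried more of these markers. Their part in the other values of MSC replicate 2 was not tested.

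In stem and progenitor cells, Meis1, a homeobox factor of blood stem cells and megakaryocytes, stood at 9.87 and 10.03 in BM, 8.65 and 8.66 in HSC and 8.50 and 7.96 in MSC (-1.51, adjusted p = 0.0671 from limma). The stem cell factor receptor gene Kit had -0.91 and Flt3 -0.16, and Ly6a, the gene of Sca-1, had 1.01. Ly6a stood at 12.33 and 12.11 in BM, 12.48 and 12.89 in HSC, 13.08 on MSC replicate 1 and 14.46 on MSC replicate 2. Of the 12 genes tested 1 was higher and 3 lower, and 0 passed, where 5.56% of all tested probes lay higher and 6.16% lower. Other named falls short of the test were Trpc6, a cation channel gene at 8.13 and 8.17 in BM and not well above background on any irradiated array (at least 1.64-fold, adjusted p = 0.0616), and Myct1 (-1.32, adjusted p = 0.0909).

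**Figure D3:**
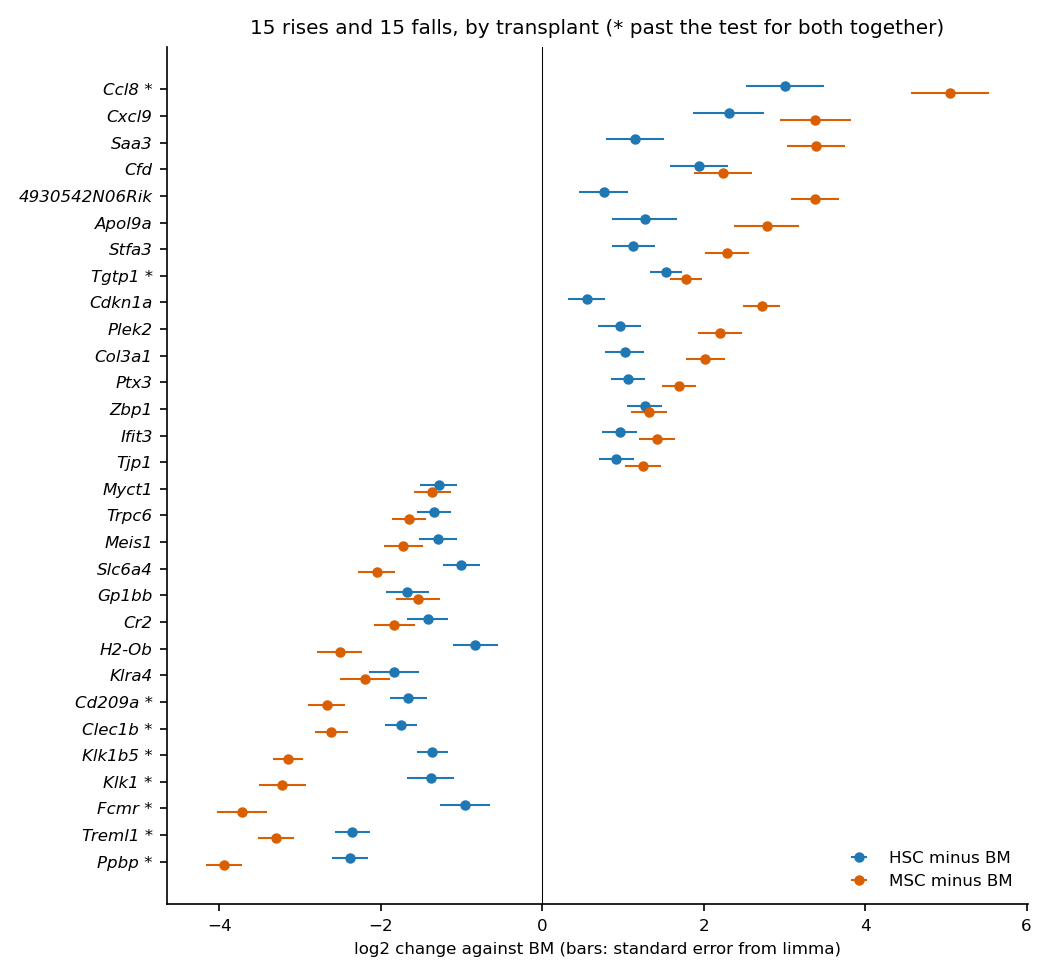
Log2 change against BM of the 15 rises and 15 falls named by rule, given for the HSC group (blue) and the MSC group (orange), with bars of 1 standard error from limma and n = 2 arrays per group. Stars mark the 9 genes past the test for both transplants together, and every gene lies on the same side of 0 in both groups because the definition requires it.

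The rises past the test were a chemokine and an immunity GTPase. Ccl8, a chemokine that attracts monocytes and T cells, stood at 9.99 and 9.02 in BM, 12.76 and 12.28 in HSC and 13.92 and 15.20 in MSC, the last being saturated. Its log2 change was 4.03 (SE 0.42, adjusted p = 0.0295 from limma), or at least 16.4-fold because of the saturated spot. BM and irradiated arrays were 2.30 apart at their nearest. The call was lost without HSC replicate 1 or HSC replicate 2 (adjusted p = 0.0996 and 0.106, over all limma alternatives 0.00115 to 0.478). Tgtp1, an interferon-induced GTPase that acts against intracellular microbes, stood at 12.33 and 12.34 in BM, 13.84 and 13.91 in HSC and 14.21 and 14.02 in MSC. It rose by 1.66 (SE 0.17, adjusted p = 0.0295), or 3.15-fold. Its change was nearly equal in HSC (1.53) and MSC (1.78), with an MSC minus HSC difference of 0.25 (adjusted p = 0.560). Tgtp2 is a near-identical copy, so which of the genes was measured is uncertain. Its call was lost with any 1 of the 6 arrays left out (adjusted p = 0.0530 to 0.139), while its log2 change stayed between 1.59 and 1.71.

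Other interferon-induced genes lay higher on all irradiated arrays without passing the test. Of 17 tested genes of the interferon response, 9 lay above both BM arrays on all 4 irradiated arrays, 0 below, and 0 passed limma (list median 0.78, with 5.56% of all tested probes above). Of the 13 that were above background on both sides, 8 were higher. Ifit3, of the same interferon-induced gene family as Ifit1, stood at 9.03 and 9.01 in BM, 9.78 and 10.18 in HSC and 10.44 on both MSC arrays (1.19, adjusted p = 0.108). Ifit1 stood at 9.54 and 9.14 in BM, 10.73 and 10.63 in HSC and 11.57 and 10.69 in MSC (1.56, adjusted p = 0.172). These are the genes whose upstream elements are printed above, and Ifit3 has a close copy in the genome. The GTPase gene Iigp1 had a difference of 2.33, Usp18, which removes the ubiquitin-like ISG15, 1.05, and the factor gene Irf7 0.87. Mx1 (-0.16) and Ly6e (-0.20) were not higher. The list medians against BM were 0.35 and 0.99 in HSC and 1.04 and 0.78 in MSC, and 0.63 to 0.95 with any 1 array left out.

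Interferon-related genes outside that list were among the named rises. Cxcl9, a chemokine induced by interferon gamma, stood at 9.19 and 8.99 in BM, 11.66 and 11.15 in HSC and 11.77 and 13.18 in MSC (2.85, adjusted p = 0.0671 from limma). Zbp1, a sensor of unusual nucleic acids, stood at 9.80 and 9.68 in BM, 11.12 and 10.89 in HSC and 10.90 and 11.22 in MSC (1.29, adjusted p = 0.0818), with HSC and MSC overlapping. Apol9a stood at 7.33 and 6.97 in BM, not well above background, and at 8.15 and 8.68 in HSC and 10.51 and 9.35 in MSC. It was at least 3.33-fold higher in irradiated marrow (adjusted p = 0.141), and close copies such as Apol9b make its identity uncertain.

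Inflammatory mediators went both ways. Of 17 tested, 2 were higher on all 4 arrays, 3 lower and 0 passed (median 0.03), where 5.56% of all tested probes lay higher and 6.16% lower. Saa3, an acute phase apolipoprotein, was not well above background in BM (7.45 and 7.36) and stood at 9.11 and 7.99 in HSC and 10.64 and 10.96 in MSC, at least 4.58-fold higher (adjusted p = 0.0671 from limma). The chemokine gene Ccl2 had a difference of 1.31, whereas the cytokine gene Il1b had -0.91 and the receptor gene Tlr2 -0.59. Ptx3, a secreted pattern recognition protein, stood at 8.81 and 8.48 in BM, 9.74 and 9.67 in HSC and 10.30 and 10.37 in MSC (1.38, adjusted p = 0.0671). Stfa3, a cysteine protease inhibitor of the stefin family of close copies, stood at 9.83 and 10.34 in BM, 11.28 and 11.15 in HSC and 12.11 and 12.64 in MSC (1.71, adjusted p = 0.0671).

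**Figure D4:**
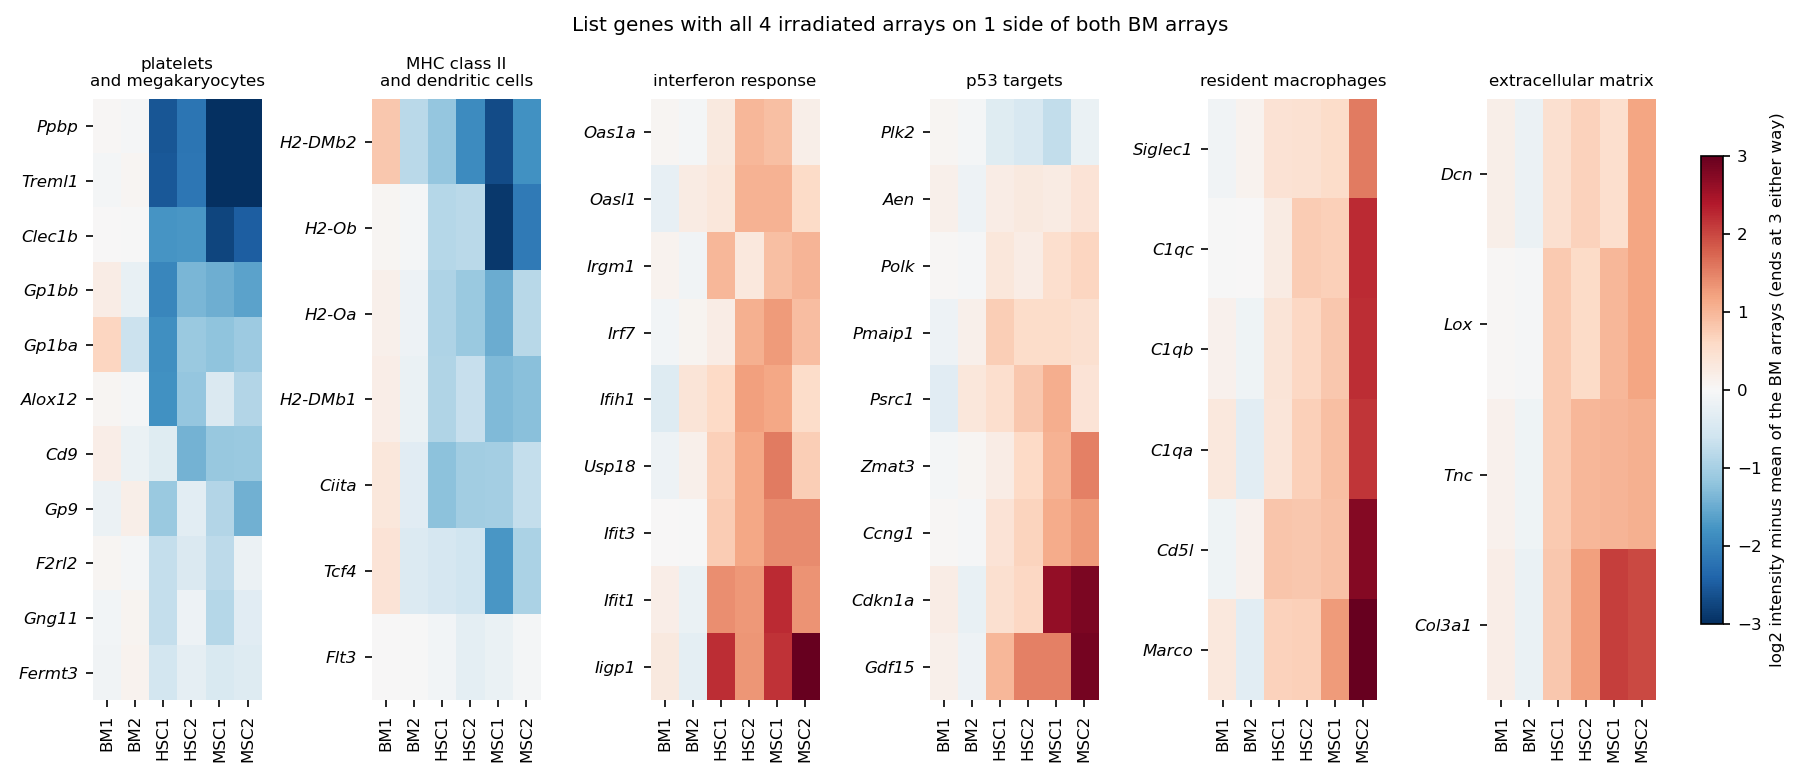
Log2 intensity minus the mean of the BM arrays on each of the 6 arrays, for the genes of 6 lists whose 4 irradiated arrays lay on 1 side of both BM arrays (colours end at 3 in either direction). Platelet and MHC class II genes are lower (blue), interferon, macrophage, matrix and all but 1 of the p53 target genes are higher (red), and the macrophage genes are reddest on MSC replicate 2.

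Among p53 targets, 8 of 19 tested genes lay higher on all 4 arrays, 1 lower (Plk2, -0.44) and 0 passed the test (median 0.43), where 5.56% of all tested probes lay higher. Of the 15 that were above background on both sides 6 were higher, and the median was 0.25 without BM replicate 2. Cdkn1a, the gene of the p53-driven cyclin kinase inhibitor p21, stood at 9.95 and 9.50 in BM, 10.20 and 10.34 in HSC and 12.35 and 12.54 in MSC (1.63, adjusted p = 0.0616 from limma). Its change was 0.55 in HSC and 2.72 in MSC, and the MSC minus HSC difference of 2.17 passed (SE 0.23, adjusted p = 0.0178), though not without HSC replicate 1, HSC replicate 2 or MSC replicate 2 (0.0819 to 0.135). Gdf15, a stress-induced secreted factor, was not well above background in BM and at least 2.69-fold higher in irradiated marrow (adjusted p = 0.325). The cyclin gene Ccng1 had a difference of 0.87 and Zmat3, which encodes an RNA-binding zinc finger protein, one of 0.84. Of 15 DNA repair genes 0 were higher and 1 lower (Prkdc, -0.31), where 6.16% of all tested probes lay lower. Of 23 proliferation genes 2 were higher, Pcna (0.38) and Tyms (0.18), and 0 lower. At their nearest the sides were only 0.028 apart for Prkdc and for Pcna and 0.0038 for Tyms.

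Resident macrophage markers lay higher, most of all on 1 array. Of 9 tested 6 were higher on all 4 irradiated arrays and 0 lower, and 0 passed the test (median 0.99), where 5.56% of all tested probes lay higher. Of the 7 that were above background on both sides 4 were higher, and Marco and Siglec1 entered through the irradiated side only. The scavenger receptor gene Marco had a difference of 1.44 (adjusted p = 0.619 from limma), the macrophage protein gene Cd5l 1.32, and the complement genes C1qa and C1qb 1.03 and 1.01. C1qb stood at 12.60 and 12.34 in BM, 12.86 and 13.09 in HSC, 13.27 on MSC replicate 1 and 14.69 on MSC replicate 2. The list medians against BM were 0.37 and 0.62 in HSC, 0.72 on MSC replicate 1 and 2.22 on MSC replicate 2, and the median was 0.61 without that array. Adgre1, the gene of the F4/80 antigen, was above background on 0 arrays.

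Some matrix and stroma genes lay higher. Col3a1, a fibrillar collagen, stood at 8.66 and 8.27 in BM, 9.28 and 9.70 in HSC and 10.54 and 10.44 in MSC (1.52, adjusted p = 0.0671 from limma). Of 9 tested matrix genes 4 were higher and 0 lower (median 0.48), where 5.56% of all tested probes lay higher and 6.16% lower. The 4 included Tnc, which encodes tenascin C (0.97), and Lox, the collagen crosslinking enzyme (0.89). The other 5 overlapped between the sides, and 4 of the 9 had a difference below 0, among them Reln, which encodes reelin (-0.92), and Emid1 (-0.42). The median of the matrix list was 0.23 without MSC replicate 2, 0.29 without HSC replicate 2 and 0.73 without MSC replicate 1. Of 14 genes of stroma and osteoblasts 3 were higher, the osteocalcin gene Bglap (1.40), the osteonectin gene Sparc (1.04) and the alkaline phosphatase gene Alpl (0.54), 0 were lower and 11 overlapped (median 0.52, and 0.34 without MSC replicate 2). Of 8 endothelial genes 0 were higher and 0 lower (median 0.10). No gene of these 3 lists passed limma.

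Cfd, the adipsin gene of fat cells, stood at 8.17 and 8.53 in BM, 10.34 and 10.24 in HSC and 10.03 and 11.15 in MSC (2.09, adjusted p = 0.0909 from limma). It was the only adipocyte gene among the named rises. Of 10 adipocyte genes 3 were higher and 1 lower (median 0.23), where 5.56% of all tested probes lay higher and 6.16% lower. Fabp4 had a difference of 1.11, Lpl one of 1.04 and Scd1 one of -0.46. The list median was -0.19 without BM replicate 2 and 0.72 without BM replicate 1, so its sign hung on the BM arrays. It was 0.09 without MSC replicate 2. Against the BM mean it stood at 1.16 on that array and at -0.09 to 0.27 on the other irradiated arrays. Fabp4 and Lpl also read highest there, at 14.88 (other irradiated arrays 13.19 to 13.56) and 12.68 (11.05 to 11.19). Plek2 stood at 10.14 and 10.82 in BM, 11.49 and 11.39 in HSC and 12.83 and 12.54 in MSC (1.58, adjusted p = 0.0868). Tjp1, the tight junction scaffold ZO-1, stood at 9.42 and 9.09 in BM, 10.13 and 10.21 in HSC and 10.61 and 10.40 in MSC (1.09, adjusted p = 0.151). The gene 4930542N06Rik was not well above background in BM and at least 4.20-fold higher in irradiated marrow (adjusted p = 0.0671), with 8.71 and 8.27 in HSC and 10.73 and 11.49 in MSC.

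The other lists are given by their counts, against 5.56% of all tested probes higher and 6.16% lower. Of 17 erythroid genes 3 were higher, among them the transferrin receptor gene Tfrc (0.70) and Rhag (0.39), and 1 lower, the carbonic anhydrase gene Car1 (-0.74). Of 13 neutrophil genes 0 were higher and 2 lower, the elastase gene Elane, saturated on both BM arrays, and Ltf, saturated on 5 of 6 arrays, so that their differences have no exact size. Of 14 monocyte genes 3 were higher, Vcan (1.32), the Fc receptor gene Fcgr1 (1.06) and Cx3cr1 (0.23), and 0 lower. The monocyte list nonetheless had 10 of its 14 genes below 0, such as Csf1r, the receptor for macrophage colony-stimulating factor (-0.74), and Irf8 (-0.49), with a median of -0.16 that was 0.18 without BM replicate 1 and -0.45 without BM replicate 2. Of 12 genes of eosinophils, basophils and mast cells 0 were higher and 1 lower, Ear1, which was saturated on all 6 arrays and turned sign under median scaling. Among 23 antioxidant genes 1 was higher, the heme oxygenase gene Hmox1 (1.06), and 1 lower, Prdx6 (-0.19). Among 10 heat shock genes 1 was higher, Hspa1b (1.36), and 0 lower. Of 12 immediate early genes 0 were higher and 4 lower (median -0.07), namely Nr4a1 (-0.82), Myc (-0.29), Zfp36 (-0.28) and Klf2, which was saturated on both BM arrays and turned sign under median scaling. For 6 tested homing genes and 3 skeletal muscle genes the counts were 0 and 0. None of these genes passed limma. All list counts are descriptions, since the lists were chosen with results known.

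**Figure D5:**
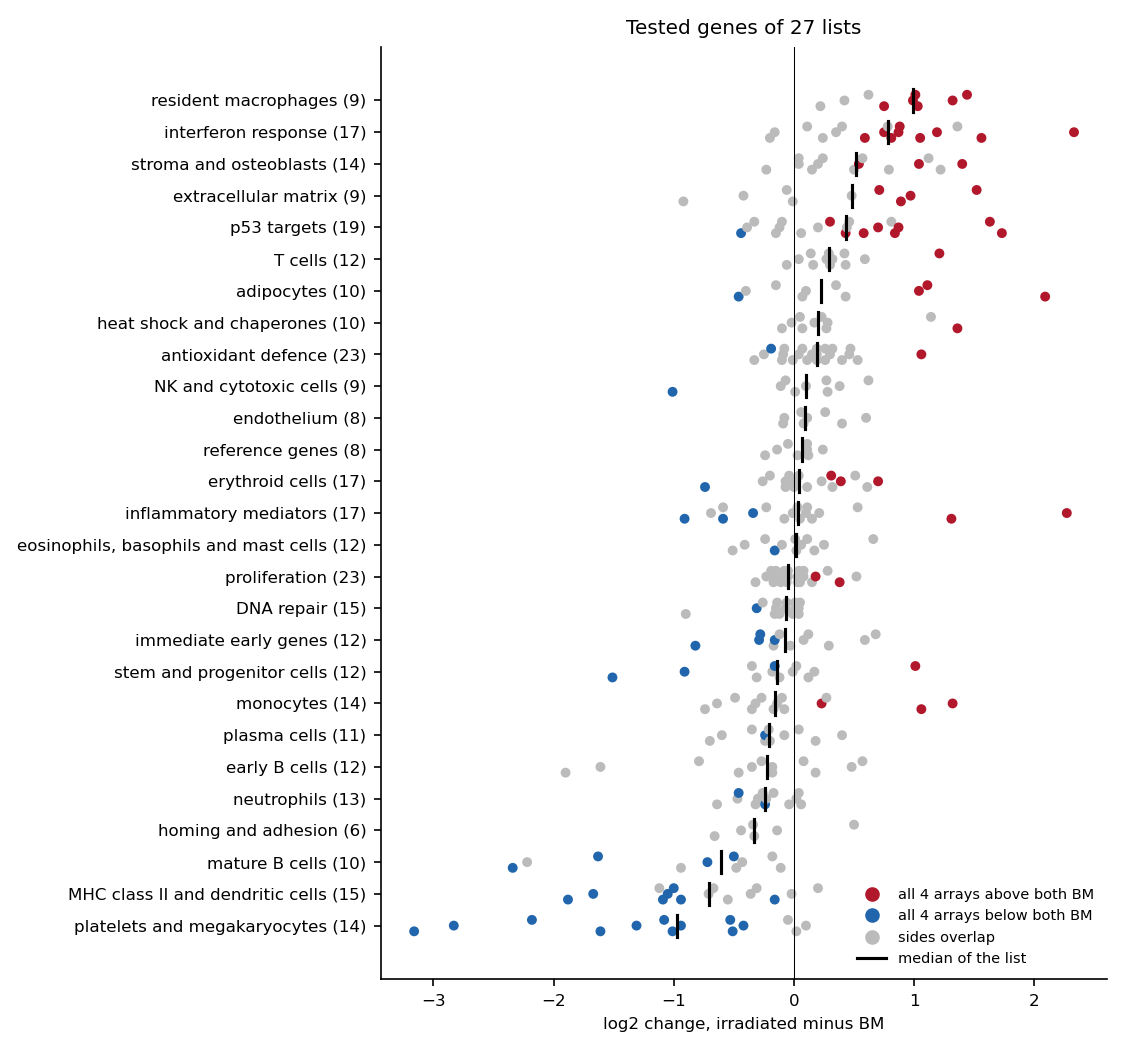
Log2 change of each tested gene in 27 lists (irradiated minus BM), with the number of genes tested in brackets and a black bar at the list median. Red and blue genes had all 4 irradiated arrays above or below both BM arrays. The lists run from platelets and megakaryocytes (median -0.97) to resident macrophages (median 0.99).

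The 2 transplants were also compared with each other. Between MSC and HSC 63 of 9982 probes (0.631%) passed limma, and 7 of them were among the 1170 shared probes. The genes named by rule that passed were Cdkn1a and 4930542N06Rik, higher in MSC, and Ppbp, Fcmr and Klk1b5, lower in MSC. Without HSC replicate 2 none of these 5 passed (adjusted p = 0.135 to 0.286), and without MSC replicate 2 none did (0.0700 to 0.180). In all 10 probes past the test for irradiated marrow the MSC arrays lay farther from BM than the HSC arrays. Among all shared probes this was less general. Of the 615 lower probes 192 (31.2%) had both MSC arrays below both HSC arrays, against 27.5% of all tested probes, and of the 555 higher ones 149 (26.8%) had both MSC arrays above, against 22.5%. Gp1bb, Zbp1 and Myct1 differed between MSC and HSC by 0.13, 0.05 and -0.08 (SE 0.27, 0.22 and 0.23, adjusted p = 0.848, 0.932 and 0.900 from limma).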

How the data were processed

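RNA of pooled marrow was hybridized to 6 1-colour CodeLink 20K arrays, 2 each for BM, HSC and MSC. The deposited scanner files give spot mean and background median as linear intensity with quality flags. A value table deposited by the authors is on the log2 scale, and on each array it ranks the probes as the background-subtracted intensity does once its sign is dropped. It was used as an alternative. The scanner intensity was corrected by normexp with an offset of 50, quantile normalized together for all arrays and then log2 transformed. An offset makes fold changes of dim probes smaller. The 488 control spots were left out, as were 209 to 558 probes per array flagged as masked, contaminated or excluded, and 142 to 188 saturated probes were kept. A probe was tested when it had no such flag and was above background on both BM or on all 4 irradiated arrays (11015 probes) and had a usable spot on all 6, which 1033 lacked.

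Symbols came from the sequence record (10712 probes), the gene number (3642) or the array annotation (278). The other 5169 probes have none, and no gene has coordinates from the arrays. limma 3.58.1 in R 4.3.3 fitted 3 groups with 3 residual degrees of freedom, two-sided, and each contrast was adjusted over all tested probes. The contrast was the mean of HSC and MSC minus BM. An exact two-sided permutation test of 4 against 2 arrays cannot go below 0.0667 and was not used. Figures used Python 3.11.15, pandas 2.3.3 and matplotlib 3.10.9. The fit was tested on simulated data. Where a group was not well above background on any of its arrays, a fold is a lower bound, taken per array against the dimmest probe still above background or the probe itself, whichever was brighter. Depth is not defined for arrays, and their number limits the precision.

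The rule for named genes took the 15 rises and 15 falls among shared probes that passed the test, by size, or else had the smallest p, up to 4 shared genes per list, and the Y-linked genes. Genes of the lists named beside them with values, and Rpl27a and Rnf215, were chosen after their values were seen. The shared probes and the 29 lists were chosen with earlier results of these data known. Alternatives changed background correction, normalization, source of values, filter, model, test, pool number and each array in turn.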

Additional observations from a re-analysis of the deposited data

Results flagged for a closer look

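For 5 named genes the change against BM differed in size between the transplants by a test of the difference (MSC minus HSC on the log2 scale, limma, n = 2 arrays each). The difference was 2.17 for Cdkn1a (adjusted p = 0.0178) and 2.62 for 4930542N06Rik (adjusted p = 0.0205), both higher in MSC. It was -1.57 for Ppbp (adjusted p = 0.0377) and -2.76 for Fcmr (adjusted p = 0.0184), both lower in MSC. For Klk1b5 the fitted difference was -1.80 (adjusted p = 0.0178), and since its MSC arrays were not well above background, HSC was at least 3.39-fold higher. With any 1 of the 6 arrays left out the differences kept their sign. They were 2.08 to 2.27 for Cdkn1a, 2.27 to 3.01 for 4930542N06Rik and -1.74 to -1.36 for Ppbp. For Fcmr they were -3.12 to -2.40 and for Klk1b5 -1.84 to -1.76. All 5 calls were nonetheless lost when some single arrays were left out. None passed without HSC replicate 2 (adjusted p = 0.135 to 0.286) or without MSC replicate 2 (0.0700 to 0.180), and Ppbp did not pass whichever of the 6 arrays was left out (0.0578 to 0.286). With no filter on dim probes none passed (0.0536 to 0.120), and with the replicate block only Fcmr did (0.0466, the others 0.0517 to 0.0968). No gene was screened for a stray array within a group, because groups hold 2 arrays.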

How the results depend on the processing

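Of the 10 calls (2 higher, 8 lower), offset 16, cyclic loess, a variance trend and keeping probes with missing spots gave counts within 1.5 times. Called higher were 0 with a background floor, with the deposited values, with no filter on dim probes, with the replicate block, in the 2-group model and by the methods' t-test (3 of the 12 probes at the study's limits of p and ratio were higher). Called lower were 5 without a filter, 5 over probes unflagged on all 6 arrays and 0 in the 2-group model and by the methods' t-test. Median scaling gave 12 higher and 19 lower, and 12 MSC against HSC calls among the shared probes in place of 7. Those were 1 with no filter, 4 over probes unflagged on all 6 arrays and 1 with the replicate block. Shared probes were 1036 higher and 998 lower with no filter, 388 and 625 with median scaling and 680 and 644 with cyclic loess.

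With 1 array left out, calls ranged from 2 to 12 higher and 4 to 59 lower, shared probes from 771 to 2242 and from 860 to 2345, and MSC against HSC calls among them from 0 to 16. The lower calls were 59 without BM replicate 2, 29 without BM replicate 1, and 4 without HSC replicate 1 or HSC replicate 2. The higher calls were 12 without MSC replicate 1 and 6 without BM replicate 1. MSC against HSC calls were 0 without MSC replicate 2, 1 without HSC replicate 2, 3 without HSC replicate 1 and 16 without MSC replicate 1. Leaving out an array also loosens the definition of a shared probe, since fewer arrays must agree. Ppbp, Treml1 and Klk1b5 passed with each array left out. List medians with arrays left out, and single genes of MSC against HSC under the alternatives, were chosen after seeing the data.

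The main test did not treat arrays of the same pool number as pairs. By mean absolute difference, BM replicate 1 lay nearer to HSC replicate 1 (0.323) than to HSC replicate 2 (0.455). BM replicate 2 lay nearer to HSC replicate 2 (0.287) than to HSC replicate 1 (0.332). Differences between pools 1 and 2 correlated at 0.498 for BM and HSC, -0.267 for BM and MSC and -0.192 for HSC and MSC, and with the replicate block 6 of the 10 calls were kept, all lower. Median scaling turned the sign of Ear1 (0.12) and Klf2 (0.04), which were -0.16 each. For these and the other values the cause was not tested. The slide could not be used as a block, since each of the 6 arrays lay on its own slide, and that alternative was not run.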
